A study of Mus musculus with 16 samples.

Results

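The 9 genes described here encode the main inhibitory checkpoints of T cells, and they were taken from the 26382 genes of the mouse table by matching a list of symbols. They comprised 6 receptors (*Pdcd1*, *Ctla4*, *Lag3*, *Havcr2*, *Tigit* and *Btla*), 2 ligands (*Cd274* and *Pdcd1lg2*) and *Tox*, a nuclear factor. Hamstring muscle of female C57BL/6 mice aged 8 to 10 weeks was sequenced in bulk 14 days after injection, and 16 libraries from 9 mice were examined. By title and treatment label, 5 mice (m862 to m866) had HRS, recombinant histidyl-tRNA synthetase at 3 to 5 mg/mL, in the left leg and PBS in the right leg, and each leg gave 1 library. These are called HRS legs and contralateral PBS legs. Another 2 mice (m867 and m868) had PBS in both legs and gave 4 libraries. The last 2 mice (m860 and m861, 1 library each, with no leg stated) carried the HRS treatment label, while their titles named an MBP fusion protein at 2 to 3 mg/mL, so they are called HRS-MBP mice. No altered allele or transgene was labelled in any group. The general protocol describes injection of HRS on both sides, which differs from the titles, and the titles were followed because they alone separate the legs.

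Inhibitory receptors are induced on T cells after antigen recognition and dampen signals of the T cell receptor and of CD28. PD-1 (*Pdcd1*) is engaged by PD-L1 (*Cd274*) and PD-L2 (*Pdcd1lg2*), and PD-L1 is induced by interferon-γ in many cell types, whereas PD-L2 is made mainly by antigen-presenting cells. In inflamed muscle these receptors would be carried by infiltrating lymphocytes, with *Havcr2* (TIM-3) also made by myeloid cells and *Btla* by B cells.

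The ligand genes *Cd274* and *Pdcd1lg2* are neighbours on chromosome 19, and their promoters are shown for that reason, with that of *Ctla4* as the single window with a match to the letters searched. Each sequence is RefSeq, build GRCm38.p6, plus strand, from 250 bases before to 50 bases after the annotated start, and capitals mark the bases from the start on. For *Ctla4* the GENCODE gene given after these begins upstream of the RefSeq start, so that its window lies within the GENCODE span. The windows lie at chr19:29367188-29367487, chr19:29410669-29410968 and chr1:60908775-60909074.
*Cd274*: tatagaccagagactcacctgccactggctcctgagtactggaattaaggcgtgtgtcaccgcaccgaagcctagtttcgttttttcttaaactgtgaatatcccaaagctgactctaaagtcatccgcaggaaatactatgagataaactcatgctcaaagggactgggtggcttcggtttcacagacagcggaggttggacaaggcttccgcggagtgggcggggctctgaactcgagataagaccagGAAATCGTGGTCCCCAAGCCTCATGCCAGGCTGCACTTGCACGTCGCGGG
*Pdcd1lg2*: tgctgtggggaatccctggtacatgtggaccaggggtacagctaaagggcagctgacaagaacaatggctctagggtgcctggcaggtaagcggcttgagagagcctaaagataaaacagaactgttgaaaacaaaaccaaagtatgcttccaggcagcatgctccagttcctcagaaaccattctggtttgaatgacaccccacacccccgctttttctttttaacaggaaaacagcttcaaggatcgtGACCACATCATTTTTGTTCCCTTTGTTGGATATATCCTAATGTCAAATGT
*Ctla4*: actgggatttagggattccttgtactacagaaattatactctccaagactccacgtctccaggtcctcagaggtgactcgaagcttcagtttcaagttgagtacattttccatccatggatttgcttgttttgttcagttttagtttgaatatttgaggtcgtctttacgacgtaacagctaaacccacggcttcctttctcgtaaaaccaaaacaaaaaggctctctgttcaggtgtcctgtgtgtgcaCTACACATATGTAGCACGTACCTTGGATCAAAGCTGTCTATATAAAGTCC
A promoter was at hand for 7 of the 9 members, and *Lag3* and *Tox* had none. The letters TTCNNNGAA (GAS), searched on both strands, were in none of these 7 windows, against 8.3% of 32851 promoters of that length. The ISRE letters (GAAA, any 2 bases, then GAAA; both strands) were also in none of the 7, against 3.44% of all promoters. The NFAT letters TGGAAA, also searched on both strands, occurred in *Ctla4* only, on the minus strand from 144 to 139 bases before the start, against 21.4% of all promoters. These are matches of letters in short windows and no measurement of binding.

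In GRCm38 the whole genes, all annotated as protein-coding, lie as follows. The receptors are *Pdcd1* at chr1:94038305-94052553 (minus strand), *Ctla4* at chr1:60887000-60915832 (plus strand), *Lag3* at chr6:124904361-124911705 (minus strand), *Havcr2* at chr11:46454935-46481255 (plus strand), *Tigit* at chr16:43648867-43664146 (minus strand) and *Btla* at chr16:45224315-45257670 (plus strand). The ligands are *Cd274* at chr19:29367455-29388095 (plus strand) and *Pdcd1lg2* at chr19:29410919-29471161 (plus strand), and the factor is *Tox* at chr4:6686353-6991557 (minus strand).

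Values are normalized counts as deposited, which are not divided by gene length. The implied depth was 8600000 to 73900000 reads per library, lowest in the right leg of m868, so that 3 reads corresponded to values between 0.0324 and 0.364. The muscle genes were high in every library (*Ckm*, muscle creatine kinase, 5050 to 27962). The HRS leg of m866 stood apart from the other HRS legs, with *Ckm* at 24180 against 5050 to 12733, a mitochondrial share of 11.1% against 3.41% to 6.29%, and a summed level of 12 T cell genes of 31.4 against 53.9 to 187. The PBS leg of m866 was the lowest contralateral leg in *Ckm* (17539 against 23469 to 27962). The HRS leg of m864 stood apart at the other end, with the highest value of all 9 members among HRS legs. Of the 9 members, 7 passed the filter on low values (a mean of at least 0.5 over 16 libraries) only through the HRS and HRS-MBP libraries. *Lag3* and *Cd274* would have passed on the 9 PBS libraries alone. A count of called members is therefore a description here.

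All 6 receptor genes and both ligand genes were called higher in the group of HRS legs than in the group of contralateral PBS legs, with *Lag3* lower in the HRS leg of 1 mouse (m866), while *Tox* rose by less than the fold threshold. The mean of *Cd274* was 6.59-fold higher and that of *Havcr2* 40.5-fold higher. In limma's moderated test across 16414 genes, 8 of 9 members passed an adjusted p of 0.05 with an absolute log2 fold change above 1. Among all tested genes, 16.9% were called higher in this comparison. The calls of *Pdcd1*, *Ctla4*, *Tigit* and *Pdcd1lg2* depended on the treatment of low values, since a pseudocount of 2 put them under the fold threshold and a filter at a mean of 2 removed them, leaving 4 members called. Quantile normalization put *Pdcd1* at 0.97. The median log2 fold change of the members was 1.63, against 0.08 for all tested genes. Fold changes are on the log2(normalized count + 0.5) scale, which makes the change of low genes look smaller than it is.

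*Pdcd1*, the receptor PD-1, read 0.808, 0.594, 3.55, 0.534 and 0.592 in the HRS legs of m862 to m866. The contralateral legs read 0.0641, 0.0165, 0.139, 0.0588 and 0. Every HRS leg was above every PBS leg, and the mean rose 21.9-fold (11.4-fold without the HRS leg of m864 and 34.9-fold without its PBS leg), with a log2 fold change of 1.40 ± 0.30 (SE, n = 5 and 5, limma adjusted p = 0.00142). The PBS legs together held 8 *Pdcd1* reads against 358 in the HRS legs.

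*Ctla4*, which competes with CD28 for CD80 and CD86, read 1.07, 0.950, 2.64, 0.694 and 0.779 in HRS legs. It read 0.0320, 0.0494, 0.0924, 0.176 and 0.108 in contralateral legs. The groups did not overlap, and the log2 fold change was 1.45 ± 0.27 (SE, limma adjusted p = 0.000551). The pseudogene *Rpl18-ps1* lies within *Ctla4* on the same strand and read 4.11 to 9.54 in the 16 libraries, so that reads shared between them cannot be told apart.

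*Lag3*, a receptor for MHC class II that resembles CD4, read 3.34, 2.98, 11.4, 3.99 and 1.62 in HRS legs. Its contralateral values were 0.449, 0.461, 0.785, 0.294 and 1.83. Mouse m866 was the exception, since its PBS leg exceeded its HRS leg and the groups overlapped through that mouse. The log2 fold change was 1.89 ± 0.41 (SE, limma adjusted p = 0.00161), with 1.56 without both legs of m864 and 2.40 without both legs of m866. The means differed 6.10-fold, which was 3.90-fold without the HRS leg of m864 and 9.38-fold without the PBS leg of m866.

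*Havcr2*, which encodes TIM-3, read 3.07, 3.55, 7.32, 6.92 and 0.374 in HRS legs and 0.0641, 0.0989, 0.0462, 0.235 and 0.0808 in contralateral legs. The HRS leg of m866 was close to the PBS range and the other 4 HRS legs were far above it. The log2 fold change of 2.64 ± 0.43 (SE, limma adjusted p = 0.000200) was the largest fitted value among the receptors on this scale, where *Tigit*, at 0 in contralateral legs, has no measured ratio. It was 2.34 without both legs of m864 and 3.15 without both legs of m866.

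*Tigit*, a receptor for PVR (CD155) and nectins, read 0.823, 0.529, 3.29, 0.694 and 0.343 in HRS legs. It was at 0 in all 5 contralateral legs, where 3 reads over the group would give 0.0162. From 339 reads in HRS legs, its pooled level was at least 68.4-fold higher in HRS legs than that floor, and at least 38.3-fold higher without the HRS leg of m864. The fitted log2 fold change was 1.48 ± 0.31 (SE, limma adjusted p = 0.00116), which depends on the added 0.5.

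*Btla*, whose ligand is the HVEM receptor encoded by *Tnfrsf14*, read 3.70, 2.75, 9.07, 2.76 and 2.03 in HRS legs and 0.320, 0.560, 0.416, 0.588 and 0.377 in contralateral legs. Its contralateral levels were closely spaced (0.452 ± 0.117, SD, n = 5) and every HRS leg lay above them. The log2 fold change was 2.09 ± 0.31 (SE, limma adjusted p = 8.73e-05), and the means differed 8.98-fold.

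**Figure D1:**
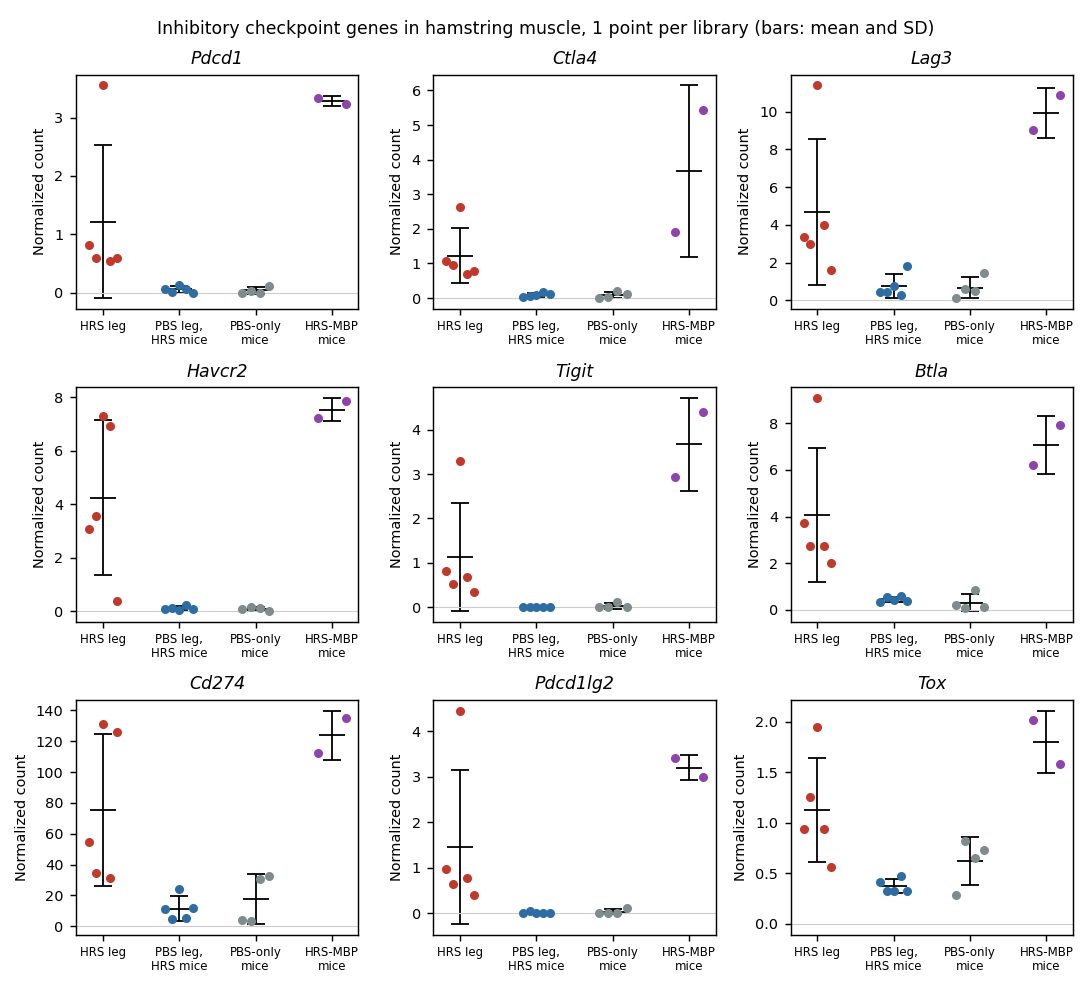
Normalized counts (vertical axes, each panel on its own linear scale) of the 9 genes in 5 HRS legs, 5 contralateral PBS legs, 4 legs of PBS-only mice and 2 HRS-MBP mice, with 1 point per library and bars for the mean and SD. Both PBS groups lie near 0 for most receptors, and *Cd274* splits the PBS-only legs into a pair near 3.68 and a pair near 31.7.

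Among the ligands, *Cd274* (PD-L1) read 54.5, 34.6, 131, 31.3 and 126 in HRS legs. The same mice had 11.1, 4.46, 24.4, 5.56 and 11.8 in the contralateral leg. Within each mouse the HRS leg was 4.91-fold to 10.6-fold higher, the smallest ratio being in m862 and the largest in m866. The 5 mice followed nearly the same order in both legs, with m864 highest, m866 next, then m862, and m863 and m865 exchanged. The log2 fold change was 2.64 ± 0.65 (SE, limma adjusted p = 0.00300).

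*Pdcd1lg2* (PD-L2) read 0.970, 0.648, 4.45, 0.783 and 0.405 in HRS legs and was at 0 in 4 of 5 contralateral legs, with 0.0494 (3 reads) in that of m863. The pooled ratio was 87.2-fold with a 95% counting interval from 29.6 to 425, and it was 45.3-fold without the HRS leg of m864. Its fitted log2 fold change was 1.63 ± 0.33 (SE, limma adjusted p = 0.00108), and the groups did not overlap. The annotated genes *Gm36043* (at most 3.03) and *A930007I19Rik* (at most 0.982) lie opposite to *Cd274* and *Pdcd1lg2*, and strand use in counting was not stated.

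*Tox*, a factor linked to lasting T cell stimulation, read 0.941, 1.25, 1.94, 0.943 and 0.561 in HRS legs and 0.417, 0.330, 0.323, 0.471 and 0.323 in contralateral legs. Each HRS leg was above each PBS leg, but the log2 fold change of 0.85 ± 0.21 (SE, limma adjusted p = 0.00319) stayed under the fold threshold. With a smaller pseudocount it was 1.25 and the gene was called. *Tox* was above 0 in all 9 PBS libraries, whereas *Tigit* was above 0 in 1 of them and *Pdcd1lg2* in 2.

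An exact permutation test of each member over libraries, two-sided and unadjusted, was run 45 times in all (9 genes in 5 comparisons). Between HRS and contralateral legs, 8 members reached the smallest possible p of 0.00794, and *Lag3* gave 0.0159. All libraries of the first group lay above all of the second for 8 members here (all but *Lag3*), against 18.3% of tested genes. Exact sign flips over the 5 mice cannot go below 0.0625, which every member reached except *Lag3*, which rose in 4 of 5 mice.

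**Figure D2:**
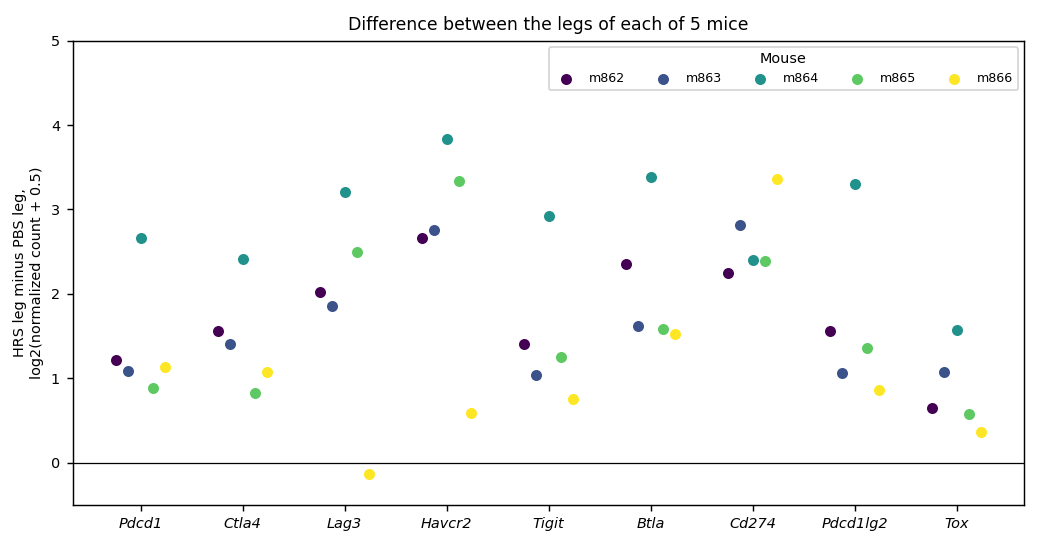
Difference between the HRS leg and the PBS leg of each of 5 mice, as log2(normalized count + 0.5), with 1 colour per mouse and 1 column per gene. Mouse m864 has the largest difference for 8 genes, m866 has the largest for *Cd274* (3.36), and only *Lag3* in m866 lies below 0 (-0.14).

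Compared with PBS-only mice, the same 8 genes were called higher in HRS legs and *Tox* was again not called. The 4 PBS-only legs, given as m867 left and right and m868 left and right, read 0, 0.0284, 0 and 0.121 for *Pdcd1*. For *Ctla4* they read 0, 0.0284, 0.196 and 0.121, for *Havcr2* 0.0809, 0.142, 0.130 and 0, and for *Tigit* 0, 0, 0.130 and 0. *Lag3* read 0.121, 0.625, 0.521 and 1.46 there, and *Btla* 0.202, 0.0853, 0.847 and 0.121. These receptors were thus low in both mice, and a library of m868 was highest for each except *Havcr2*, at a depth where 0.121 is 1 read in its right leg. *Pdcd1lg2* was seen only in the right leg of m868, as that 1 read.

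The receptor fold changes against PBS-only mice lay between 1.39 (*Tigit*) and 2.68 (*Havcr2*) on the log2 scale, and that of *Pdcd1lg2* was 1.58. The share of all genes called higher was 18.9%. All HRS legs lay above all PBS-only legs for 7 members, against 26.6% of tested genes, the exceptions being *Cd274* and *Tox*. *Tox* (0.283, 0.824, 0.652 and 0.728 in PBS-only legs) had a log2 fold change of 0.51 ± 0.22 (SE, limma adjusted p = 0.0575). The 4 PBS-only libraries come from 2 animals, so that p-values over legs treat legs of a mouse as separate samples, and with the legs averaged the number of called members was again 8.

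The ligand *Cd274* separated the 2 PBS-only mice. The legs of m867 read 3.76 and 3.60 and those of m868 read 30.9 and 32.5, so that the means differed 8.62-fold between the mice while the legs of a mouse differed by 1.04-fold and 1.05-fold. Against PBS-only mice, *Cd274* had a log2 fold change of 2.45 ± 0.68 (SE, limma adjusted p = 0.00677). The estimate was 3.92 without both legs of m868, which leaves m867 as the single PBS-only mouse. The lowest HRS leg, at 31.3, lay within the range of the legs of m868.

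Some interferon-inducible genes, chosen after their values were seen, were also higher in m868. The summed level of the 10 genes of the interferon-γ list overlapped between the mice (405 and 432 in m867, 439 and 406 in m868), although *Irf1*, *Cxcl9*, *Cxcl10* and *Ciita* of that list were each higher in both legs of m868. *Gbp4*, a guanylate-binding protein and the gene most like *Cd274* over the 16 libraries, read 8.83 and 8.86 in m867 and 88.0 and 73.7 in m868, a 9.14-fold difference of means. *Irf1*, an interferon-induced transcription factor, was 2.75-fold higher in m868, *Ciita* 2.86-fold, and the chemokines *Cxcl9* and *Cxcl10* 2.59-fold and 3.99-fold. Of the leukocyte genes set beside them, the T cell gene *Cd3e* was 0.936 of its m867 mean in m868 and the macrophage gene *Csf1r* was 1.34-fold higher, both with overlapping legs. *Adgre1*, another macrophage gene, was 1.73-fold higher and *Ptprc* 1.48-fold higher in m868, without overlap of the legs. *Ifng* itself had 0 and 0.0284 in m867 and 0 and 0.243 in m868, at most 2 reads per leg. With 2 mice there is no test of this difference.

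**Figure D3:**
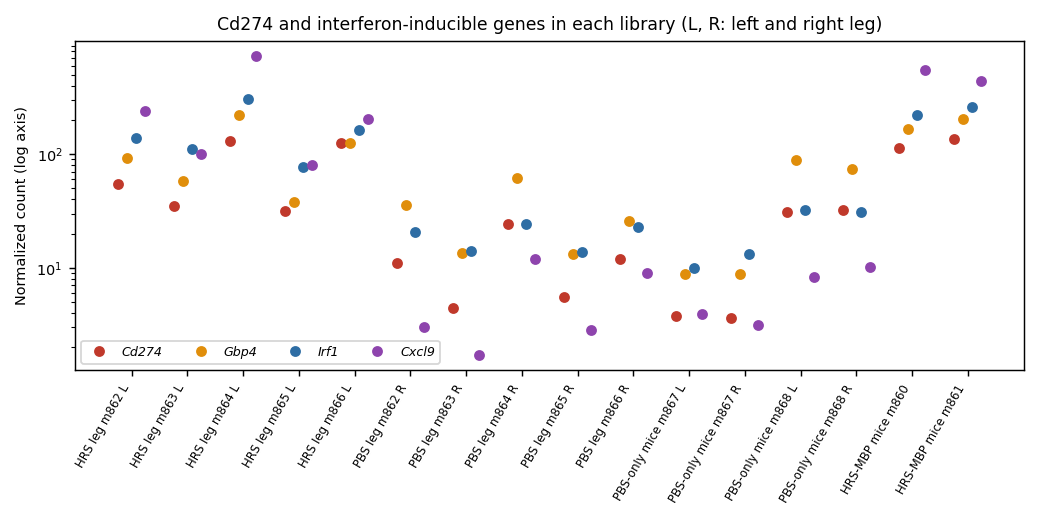
Normalized counts (log axis) of *Cd274*, *Gbp4*, *Irf1* and *Cxcl9* in each of the 16 libraries, with points of a library shifted sideways so that they do not hide each other. All 4 genes are higher in the legs of PBS-only mouse m868 than in those of m867, and *Cd274* in the HRS leg of m866 (126) is close to that of m864 (131).

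The PBS leg of HRS mice and the legs of PBS-only mice were compared to ask whether the checkpoint genes differ at a distance from the injected leg. No member was called by limma, none had an unadjusted p under 0.05 (902 of 16414 tested genes did), and none did in the exact permutation test. Of all tested genes 0.00609% were called, which is 1 gene. The 95% interval of the log2 difference ran from -0.59 to 0.63 for *Ctla4*, from -0.63 to 0.72 for *Pdcd1* and from -0.77 to 0.60 for *Tigit*. These genes had few reads in both groups, so the pseudocount narrows their intervals, which do not bound the fold difference. *Pdcd1* rested on 8 reads in contralateral legs and 2 in PBS-only legs. Its pooled ratio was 1.81, with a 95% counting interval from 0.361 to 17.5. The limma interval was wider for *Lag3*, from -0.83 to 1.03, and for *Cd274*, from -1.65 to 1.26, which had more reads. The estimate for *Cd274* was -0.20, and 1.28 without m868, not called either and with m867 as the single PBS-only mouse. *Tox* was lower in the contralateral legs by estimate (-0.34, limma adjusted p = 0.978), with an interval from -0.81 to 0.13.

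HRS-MBP mice had all 9 members called higher than in PBS-only mice, with 20.7% of all genes called higher. The values in m860 and m861 were 3.34 and 3.22 for *Pdcd1*, 1.91 and 5.43 for *Ctla4*, 9.003 and 10.9 for *Lag3*, and 7.23 and 7.85 for *Havcr2*. They were 2.93 and 4.403 for *Tigit*, 6.19 and 7.94 for *Btla*, 113 and 135 for *Cd274*, 3.40 and 3.00 for *Pdcd1lg2*, and 2.02 and 1.58 for *Tox*. All of these lay above all PBS-only legs, as did 39.8% of tested genes, and only *Ctla4* differed between the mice by more than 2-fold.

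On the log2(normalized count + 0.5) scale, the largest fold changes of the HRS-MBP mice over PBS-only mice were 3.78 ± 0.59 for *Havcr2* and 3.42 ± 0.88 for *Cd274* (SE, n = 2 and 4, limma adjusted p = 0.000118 and 0.00481), and the smallest was 1.06 ± 0.29 for *Tox* (adjusted p = 0.00625). This order holds on that scale only, since the means of *Cd274* differed 6.99-fold and those of *Havcr2* 85.4-fold. Without both legs of m868, which leaves m867 as the single PBS-only mouse, the log2 value for *Cd274* was 4.89. *Tox* was no longer called without the left leg of m867 (0.89). Without m860, which leaves m861 alone in the HRS-MBP group, the estimate for *Tox* was 0.92. The exact permutation test cannot go below 0.0667 with 2 against 4 libraries.

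Against the HRS legs, the HRS-MBP mice had higher estimates for all 9 members, from 0.55 for *Tox* to 1.56 for *Tigit*, and no member was called. The median was 1.23, against -0.03 for all genes. Of the 9, 6 had an unadjusted limma p under 0.05, as did 2371 of the 16414 tested genes, and the adjusted p was lowest for *Tigit* (0.104). Only 0.396% of all genes were called higher in this comparison, and all HRS-MBP libraries lay above all HRS legs for 7.1% of genes and for 0 members. The HRS leg of m864 overlapped them, since its *Pdcd1* (3.55), *Lag3* (11.4), *Btla* (9.07) and *Pdcd1lg2* (4.45) exceeded both HRS-MBP values. Without that library the genes called among all tested went from 76 to 578, and 6 members were called (*Pdcd1*, *Ctla4*, *Lag3*, *Tigit*, *Btla* and *Pdcd1lg2*). Without both legs of m864 there were 5 members among 555 genes, with *Lag3* at an adjusted p of 0.0552. Without m860, which leaves m861 alone in the HRS-MBP group, the estimate for *Ctla4* was 1.88. The protein named in the titles and the mice differ between these groups, the labels and titles differ on the dose, and these cannot be told apart.

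**Figure D4:**
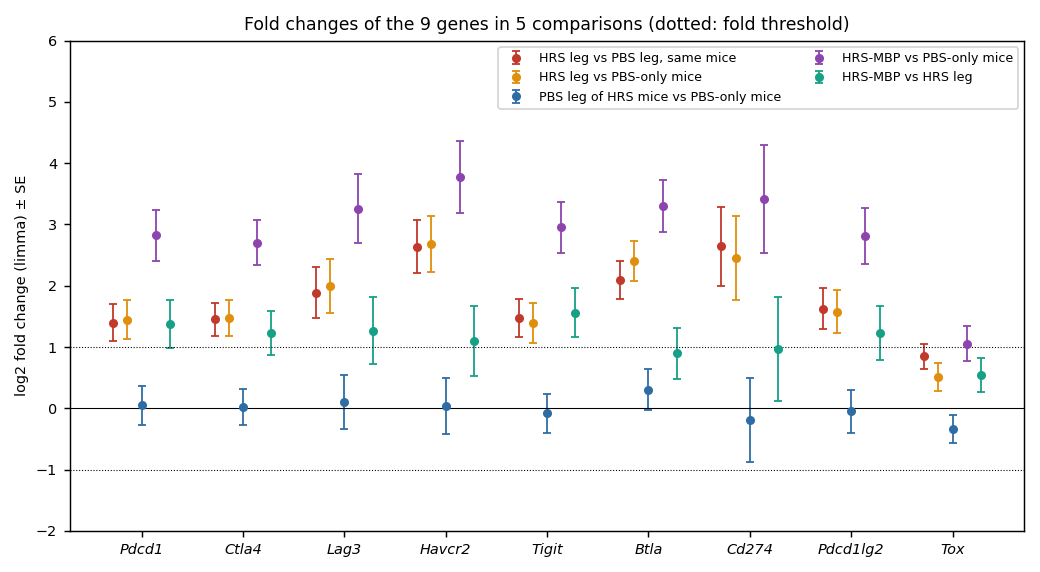
Log2 fold changes from limma (points) with SE (bars) for the 9 genes in 5 comparisons, with dotted lines at the fold threshold of 1 in both directions. The contralateral PBS legs differ from PBS-only mice by -0.34 to 0.31, and *Tox* has the smallest estimate in each of the 4 other comparisons.

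Genes of T cells moved with the receptors. The summed level of *Cd3d*, *Cd3e* and *Cd3g*, which encode CD3 chains of the T cell receptor complex, was 13.0, 8.36, 36.1, 7.90 and 5.76 in HRS legs of m862 to m866. It was 0.609 to 1.66 in contralateral legs, 0.485 to 1.17 in PBS-only legs, and 29.1 and 38.6 in HRS-MBP mice. *Cd4* was 4.05 to 40.5 in HRS legs against 0.449 to 0.878 in contralateral legs, and *Cd8a* 1.46 to 14.0 against 0 to 0.277. *Foxp3*, the factor of regulatory T cells, read 1.60 to 4.03 against 0.563 to 1.37. *Ptprc*, the pan-leukocyte gene CD45, read 58.0 to 279 against 3.62 to 9.47. In bulk muscle, more cells of a type and more RNA per cell cannot be told apart.

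Set against the CD3 sum of the same library, several receptors fell into narrow ranges. Per 100 units of CD3, *Btla* was 25.1 to 35.1 in the 5 HRS legs and 20.6 and 21.2 in HRS-MBP mice, which lay below all HRS legs. *Pdcd1* was 6.21 to 10.3 and *Tigit* 5.95 to 9.10 in HRS legs, against 8.35 to 11.5 and 10.1 to 11.4 in HRS-MBP mice. *Ctla4* was 7.32 to 13.5 and *Lag3* 25.6 to 50.5 in HRS legs, and *Pdcd1lg2* was 7.03 to 12.3. The differences between HRS legs were thus much smaller per CD3 unit for these 6 genes than in normalized counts, for which *Pdcd1* spanned 0.534 to 3.55.

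The other 3 members narrowed less or not at all. *Tox* spanned 3.47-fold over HRS legs in normalized counts and 2.78-fold per CD3 unit. *Havcr2* spanned 6.49 (m866) to 87.6 (m865) per 100 units of CD3. *Cd274* was 364 to 418 in 4 HRS legs and 350 and 386 in HRS-MBP mice, but 2181 in the HRS leg of m866, where the CD3 sum was lowest and *Cd274* second highest. That leg also had *Irf1* at 162, second among HRS legs, while *Adgre1*, the macrophage gene F4/80, was lowest at 110.

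In contralateral legs the ratios rest on 19 to 50.1 CD3 reads per library and in PBS-only legs on 6 to 41, so they are coarse. *Tox* was 19.4 to 68.4 per 100 units of CD3 in contralateral legs and 58.3 to 100.0 in PBS-only legs, all above the 5.38 to 15.0 of HRS legs. This ratio is no level per T cell, since the cells that carried *Tox* in PBS legs were not tested. *Lag3* reached 189 and 200 in single PBS libraries, and *Cd274* spanned 309 to 4461 in PBS-only legs. *Tigit* was at 0 in contralateral legs and reached 13.3 in a PBS-only leg, above every HRS leg. *Ctla4* averaged 10.03 in contralateral legs against 9.85 in HRS legs, and *Pdcd1* spanned 0 to 10.5 in contralateral legs, so that both overlapped HRS legs.

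**Figure D5:**
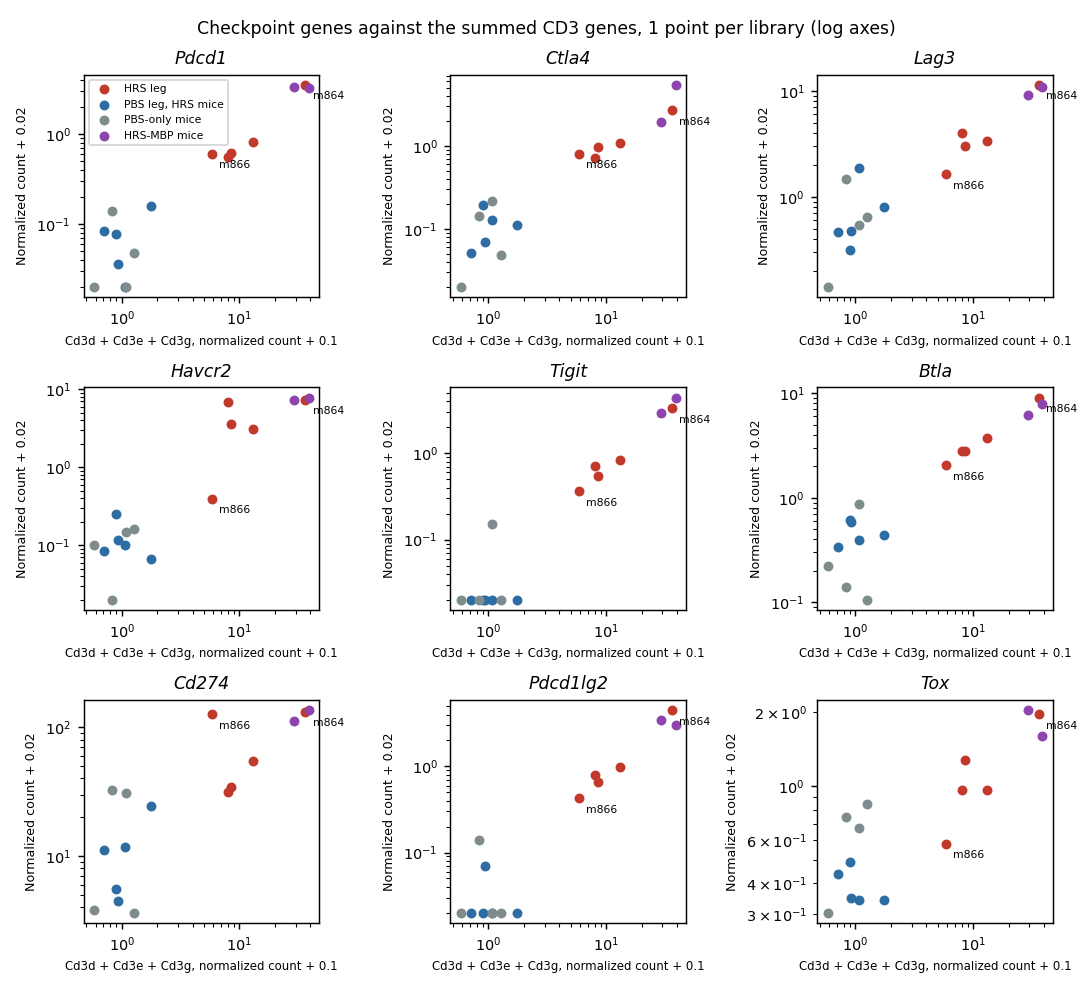
Normalized counts of each gene (vertical, plus 0.02) against the summed counts of *Cd3d*, *Cd3e* and *Cd3g* (horizontal, plus 0.1) on log axes, with 1 point per library and the HRS legs of m864 and m866 named. *Cd274* in the HRS leg of m866 lies above the other HRS legs of low CD3 sum, and *Havcr2* there lies below them.

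Markers of other leukocytes were also higher in HRS legs, and their part in the checkpoint values was not tested. The counts of called genes in this and the next paragraphs stand beside 16.9% of all tested genes called higher. All 6 macrophage genes tested were called higher than in contralateral legs (summed level 269 to 1115 against 46.6 to 117), as were 11 of 12 T cell genes (31.4 to 187 against 4.91 to 6.504) and 5 of 5 NK cell genes (9.36 to 28.5 against 0.235 to 1.62). Of the B cell genes 4 of 5 tested were called (4.11 to 24.5 against 0.735 to 1.52), of the dendritic cell genes 5 of 7 (27.9 to 85.5 against 9.97 to 13.9), of the neutrophil genes 4 of 4 tested (10.2 to 115 against 0.929 to 2.91) and of the plasma cell genes 3 of 3 tested (55.0 to 79.0 against 6.15 to 16.6). Only 1 of 5 genes of the regulatory T cell list was called (*Tnfrsf18*), and the summed levels of the list overlapped (14.1 to 24.998 against 12.3 to 19.1). In contralateral legs that sum lay above the sum of the 12 T cell genes, and which cells carried it was not tested. The overlap is therefore no measure of regulatory T cells. No gene of 4 endothelial genes was called, and the summed level of 6 muscle genes was 34568 to 142014 in HRS legs against 101195 to 163000, with 2 of 6 called lower.

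Among the ligands that bind the receptors above, 11 of 13 passed the filter, 7 were called higher in HRS than contralateral legs and none lower. *Cd86* and *Cd80*, the ligands shared by CTLA-4 and CD28, had log2 fold changes of 2.22 ± 0.31 and 1.97 ± 0.33 (SE, limma adjusted p = 5.83e-05 and 0.000261). *Tnfrsf14*, the partner of BTLA, had 2.48 ± 0.33, with means of 7.35 against 0.803. The galectins *Lgals3* (3.61) and *Lgals9* (1.45), ligands reported for LAG-3 and TIM-3, and the nectins *Nectin2* (1.60) and *Nectin3* (1.01) were also called. *Pvr*, the high-affinity ligand of TIGIT, was not (0.49 ± 0.15), nor were *Ceacam1* (0.26) and *Hmgb1* (-0.29). *Clec4g* and *Fgl1* did not pass the filter.

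Of 5 other receptors of costimulation or of shared ligands, 4 were called higher. *Cd226*, the activating counterpart of TIGIT, had a log2 fold change of 2.09 ± 0.30, the costimulatory receptor *Icos* 2.09 ± 0.33, *Cd96* 1.49 ± 0.23 and *Cd160* 1.07 ± 0.29 (SE, limma, all called), the last with a rise in 4 of 5 mice. *Cd28* was the exception at -0.09 ± 0.33, with 4.199 to 7.04 in HRS legs and 3.20 to 11.1 in contralateral legs. *Cd28* was also at 3.40 to 12.3 in PBS-only legs, and *Ctla4* was 0.0863 there on average. Every *Cd28* value of the PBS groups lay above the highest CD3 sum there (1.66), and which cells carried *Cd28* was not tested.

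Of 11 other inhibitory receptors, 11 were called higher, and 7 with a filter at a mean of 2. The largest log2 fold changes were those of *Lilrb4a* (3.84), *Lair1* (3.81) and *Pilra* (3.56), receptors found on myeloid cells. Of the genes that act just below such receptors, 5 of 9 tested were called higher, led by the phosphatase *Ptpn6* (SHP-1, 3.89), the lipid phosphatase *Inpp5d* (2.79) and the adaptor *Sh2d2a* (2.72), and none lower. *Ptpn11*, which encodes SHP-2 and is recruited by PD-1, had -0.26 ± 0.10. Of 15 factors and surface genes linked to T cell exhaustion, 7 were called higher and 1 lower. The largest rises were *Batf* (2.59), *Tcf7* (2.40) and *Id2* (2.39), and the fall was *Nr4a1* (-1.29). *Tox2*, the close relative of *Tox*, had 0.22 ± 0.22.

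Of 10 genes of the interferon-γ axis, 7 were called higher in HRS legs. *Cxcl9* rose by 5.31 ± 0.57, *Cxcl10* by 5.10 ± 0.47 and *Ciita*, the activator of MHC class II genes, by 3.67 ± 0.39 (SE, limma). *Ifng* read 1.36, 0.744, 5.30, 0.349 and 1.43 in HRS legs and 0 in all contralateral legs. *Jak1* (-0.01), *Jak2* (-0.08) and *Ifngr2* (-0.48) were not called.

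Per kilobase of exons, the level in HRS legs was highest for *Cd274* (20.8 ± 13.6, SD, n = 5), which was above *Lag3* in all 16 libraries. *Lag3* followed at 2.21 ± 1.83, then *Havcr2* at 1.56 ± 1.06, *Tigit* at 1.24 ± 1.32 and *Btla* at 1.20 ± 0.84. *Pdcd1lg2* (0.740 ± 0.861), *Pdcd1* (0.630 ± 0.679) and *Ctla4* (0.527 ± 0.345) were lower, and *Tox* was lowest at 0.148 ± 0.068. Neighbours in this order differed by less than their SDs, apart from *Cd274* against *Lag3* and *Ctla4* against *Tox*. Within libraries, *Btla* was above *Pdcd1lg2* and *Ctla4* above *Tox* in all 5 HRS legs, whereas *Tigit* was above *Btla* in 1 of 5 and *Pdcd1* above *Ctla4* in 1 of 5.

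The genes most like each member were sought by Pearson correlation of deviations from the group means over the 16 libraries, as a description, since the points share library depth and composition. For *Cd274* they were *Gbp4* (0.98), *Tgtp2* (0.97) and *Gbp5* (0.97), all interferon-inducible GTPases. *Pdcd1* went with *Cst7* (0.96), *Cd3d* (0.96) and *Ighv1-42* (0.95), and *Pdcd1lg2* with *Gpr84* (0.98), *Mcemp1* (0.96) and *Ubash3a* (0.96). *Havcr2* went with the chemokine *Ccl4* (0.97), *Gpr162* (0.95) and *Gm5150* (0.95). *Lag3* went with *Pnp*, *Lfng* and *B2m* (each 0.95), *Tigit* with *Klhl6* (0.95), *Slc2a6* and *A530040E14Rik* (each 0.94), and *Btla* with *Smchd1* (0.94), *Rtcb* (0.92) and *Dnaaf3* (0.91). *Ctla4* went with *Sdc4* (0.91), *Smpdl3b* (0.90) and *Igkv6-15* (0.89), and *Tox* with *Tln1* (0.91), *Ptpn18* (0.90) and *Zfp287* (0.88). Between the members the correlation was highest for *Pdcd1* with *Pdcd1lg2* (0.96) and lowest for *Cd274* with *Havcr2* (-0.27). The HRS leg of m864 was far above the other HRS legs for *Pdcd1* (3.55, next 0.808) and *Pdcd1lg2* (4.45, next 0.970), and also for *Tigit*. That single library therefore weighs heavily in the 0.96 and in the genes listed for these members.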

How the data were processed

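Bulk poly(A) RNA of hamstring muscle had been sequenced on 3 Illumina platforms, with no statement of which library ran on which. The authors deposited normalized counts, a signal that is never negative and not log-transformed, and their scaling is not given in the sources used here. The submitters' processing notes name STAR 2.7.8a, limma and the builds mm39 and GRCm39, without roles. The coordinates of the table match GENCODE M21 (GRCm38), since 99.0% of 25652 genes matched by symbol and chromosome had the same start and end. Library totals were lowest at 726797. Between 74.7% and 76.7% of low values (up to 20 steps, tolerance 0.02 steps) were whole multiples of a step, not nearly all of them, so no count model was run. The step gave the worth of 1 read, the implied depth and the floor of 3 reads, and reads quoted are values divided by the step and rounded. Intervals and floors cover counting error only. The number of columns left unused was 0.

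The test was limma 3.58.1 in R 4.3.3 (lmFit, then eBayes with trend), run on log2(normalized count + 0.5). It covered the 16414 genes whose mean over all 16 libraries reached 0.5, with 4 groups in 1 fit and Benjamini-Hochberg adjustment over all tested genes. Calls required an adjusted p below 0.05 together with a log2 fold change beyond 1 in either direction. The fit was tested on simulated data before use. Single members were also compared by exact permutation and exact sign flips. Python 3.11.15 with numpy, pandas, scipy and matplotlib gave the other values. Exon lengths came from GENCODE M21 and promoters from RefSeq.

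Named genes were all 9 members, the direct partners, the 3 largest called changes of each other list, level markers and the 3 genes most like each member. *Gbp4*, *Irf1*, *Csf1r*, *Adgre1* and others set beside the 2 PBS-only mice and m866 were chosen after their values were seen. Members and gene lists were chosen with earlier results of these data known. A mouse number marks the same animal, so legs are paired by the mouse label. The correlation across genes of the deviations of both legs was 0.12, 0.16, 0.097, -0.026 and -0.37 in m862 to m866. Alternatives covered the pseudocount, filter, scaling, variance model, groups in the fit, each library left out, averaged legs and a mouse block. Leaving out both legs of m864, m866 or m868 was added after the data were seen, as were the folds with each library left out. Human libraries, single cells and the protein sequences of the members were not analysed here, and some genes of the lists are not reported here by name.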

Additional observations from a re-analysis of the deposited data

Results flagged for a closer look

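Outlying libraries were sought in 57 groups of 4 or 5 values, from HRS, contralateral PBS and PBS-only legs. They covered 9 normalized counts, the CD3 sum and 9 ratios to it. In 19 groups the gap of a library to its nearest neighbour was over 0.710 (5 values) or 0.829 (4 values) of the range. Chance gives about 1 in 20 for independent, normally distributed values, which these are not, so no excess over chance can be read from the 19. The values are unlogged, the ratios reuse the same counts, and the same libraries recur. A group in which a single library has reads passes by construction. The gap therefore serves only to list libraries that stand apart. The HRS leg of m864 was highest by this measure for *Pdcd1* (3.55, next 0.808), *Ctla4* (2.64, next 1.07), *Lag3* (11.4, next 3.99), *Tigit* (3.29, next 0.823), *Btla* (9.07, next 3.70), *Pdcd1lg2* (4.45, next 0.970) and the CD3 sum (36.1, next 13.0). Among ratios per 100 units of CD3, the HRS leg of m866 stood out for *Cd274* (2181, next 418).

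Single libraries of the PBS groups also stood out, most of them at few reads. These were *Havcr2* in the contralateral leg of m865 (0.235), *Pdcd1lg2* in that of m863 (0.0494, or 5.99 per 100 units of CD3), and *Lag3* per 100 units of CD3 in that of m866 (189, from 68 *Lag3* reads and 36 CD3 reads). In PBS-only mice they were the left leg of m868 for *Tigit* (0.130, or 13.3 per 100 units of CD3) and *Btla* (0.847), and the right leg of m868 for *Pdcd1lg2* (0.121, or 16.7 per 100 units of CD3), *Pdcd1* (16.7 per 100) and *Lag3* (200 per 100).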

How the results depend on the processing

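The number of members called fell from 8 to 4 between HRS and contralateral legs, and between HRS legs and PBS-only mice, with a pseudocount of 2 or with a filter at a mean of 2, and from 9 to 4 between HRS-MBP and PBS-only mice with that filter. *Pdcd1*, *Ctla4*, *Tigit* and *Pdcd1lg2* are below the fold threshold with the pseudocount and are not tested with the filter. *Tox*, with a mean of 0.849 over the 16 libraries, is not tested with the filter either. Quantile normalization, which moved the median of all genes from 0.08 to -0.16 in the first comparison, put *Pdcd1* at 0.97 and 0.98 and *Tigit* at 0.91 (against PBS-only mice), and *Tox* at 0.55 in HRS-MBP mice against PBS-only mice, where a pseudocount of 2 gave 0.54. With libraries left out in turn, the count was 8 each time in the first 2 comparisons, and 0 to 6 members were called between HRS-MBP mice and HRS legs. Without both legs of m864 there were 5. With mouse as a replicate block (fixed or random, HRS against contralateral legs only), 8 members were called and no call of a member changed.

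Between contralateral and PBS-only legs no member was called under any setting run, and estimates near 0 changed sign. With quantile normalization *Ctla4* was -0.0526 and *Havcr2* -0.059. Without both legs of m864 *Pdcd1* was -0.0030, without those of m866 *Lag3* was -0.146, and without those of m868 *Havcr2* was -0.022, *Cd274* 1.277 and *Pdcd1lg2* 0.027. With single libraries left out the ranges were -0.0030 to 0.120 (*Pdcd1*), -0.052 to 0.107 (*Ctla4*), -0.166 to 0.385 (*Lag3*), -0.037 to 0.083 (*Havcr2*), -0.695 to 0.307 (*Cd274*) and -0.078 to 0.027 (*Pdcd1lg2*). All genes called ranged from 0 to 3 there, against 1, and from 4 to 578 between HRS-MBP mice and HRS legs, against 76. Among list counts for HRS against contralateral legs, 4 receptors of costimulation or shared ligands became 2 and 1 regulatory T cell gene became 0 with a pseudocount of 2 or a filter at 2, 11 other inhibitory receptors became 7 with that filter, and the smaller pseudocount gave 2 regulatory T cell genes. Depth limits *Tigit*, *Pdcd1lg2* and *Pdcd1* in PBS legs, where they rest on 0 to 8 reads per group.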

Other observations

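The single gene called between contralateral PBS legs and PBS-only legs was *Nr4a2*, a nuclear receptor and immediate early gene that stood in the list of exhaustion factors. It read 0.897, 1.38, 2.12, 1.71 and 3.50 in the contralateral legs of m862 to m866 and 8.05, 9.12, 7.24 and 7.28 in the legs of m867 and m868. The groups did not overlap, and the log2 difference was -1.88 ± 0.26 (SE, limma adjusted p = 0.0354). It was 2.16 to 4.14 in HRS legs and 2.99 and 2.76 in HRS-MBP mice. The 4 PBS-only legs come from 2 mice, and the call was lost with the legs of a mouse averaged. It was also lost with the smaller pseudocount, with no filter, with only these groups in the fit, without the contralateral leg of m863, m864 or m865, without any single PBS-only leg, and without both legs of m864 or m868. With the settings run the number of genes called was 0 to 3, and the cause was not tested.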
